A study of Mus musculus with 3 samples.

Results

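Malat1 and Neat1 are a pair of long non-coding RNAs that stay in the nucleus. They were chosen by name from the 17209 genes listed in any of the 3 libraries, because both had more reads in the 2 libraries from inhibitor-treated cells, so the treated-over-untreated values given here describe that choice and support nothing by themselves. Both genes were listed in every library and passed the level filter used for the comparisons.

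The RNA came from mouse epiblast stem cells (EpiSCs) of strain 129 at passage 1, pluripotent cells akin to the post-implantation epiblast, grown on gelatin in serum with both inhibitors. IWR1 cells received 2 µM IWR1, a tankyrase inhibitor that dampens Wnt signalling, for 12 h. Y27 cells received Y27632, a kinase inhibitor, for 12 h, at a labelled dose of 0.5 µM that could not be checked from the data. NT cells were left overnight with neither inhibitor, and whether treated cells first went without them is not stated, so withdrawal and treatment cannot be told apart. There was 1 library per group, so no difference below has a replicate check and none was tested.

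Malat1 accumulates in nuclear speckles, bodies rich in splicing factors, and is among the most abundant long non-coding RNAs of mammalian cells. RNase P cuts its 3′ end and frees a tRNA-like small RNA, and the new end of Malat1 is protected by a triple helix. Neat1 is the scaffold of paraspeckles, nuclear bodies that form around its long isoform with the proteins Nono, Sfpq and Pspc1. Its short isoform ends at an early polyadenylation site and shares the 5′ part of the long one. The short isoform is widely made, while paraspeckles need the long isoform and are known to be scarce or absent in undifferentiated human embryonic stem cells.

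The genes lie next to each other on chromosome 19, on the same strand, with 0 other listed genes between them. The stretches shown next are those that bear on what the counts can see: the Malat1 start region, the protected Malat1 3′ end, and the end of the Neat1 isoform that was counted. The promoter comes from RefSeq on GRCm38.p6, another assembly than the mm8 build named for the files, and the others from GENCODE transcripts of GRCm38.

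The Malat1 start region, chr19:5802623-5802922 on the minus strand of GRCm38.p6, runs from 250 bases before to 50 bases after the start of the RNA. Capitals mark TGACG, the core of the cyclic AMP response element, on either strand.
Malat1 promoter: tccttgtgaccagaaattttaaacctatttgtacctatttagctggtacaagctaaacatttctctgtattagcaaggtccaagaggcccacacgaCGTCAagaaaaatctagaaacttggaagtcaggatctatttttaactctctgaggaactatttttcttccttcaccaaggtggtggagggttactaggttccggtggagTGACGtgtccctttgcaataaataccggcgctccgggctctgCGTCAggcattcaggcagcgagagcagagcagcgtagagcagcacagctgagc

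TGACG occurred 3 times in this window on either strand, with the matches beginning 154, 45 and 3 bases before the start. At least 1 match was found in 20.9% of the 32544 distinct promoter windows of the table and 3 or more in 1.04%. The hypoxia response core ACGTG occurred once, overlapping the middle TGACG, and was present in 19.7% of windows. No match was found for CTTTGA, the core of the TCF/LEF site through which Wnt signalling acts (16.0% of windows), for GGGCGG (35.9%), CCAAT (37.4%), TATAAA (13.6%) or TGANTCA (7.79%), or for the CArG box bound by serum response factor (1.64%). Both strands were searched, and a match or its absence says only which letters the window holds. For Neat1 no promoter was shown.

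The Malat1 3′ end is given as bases 6562 to 6691 of its 6983-base transcript. Capitals mark the T-rich runs and the run of 12 A that begins at base 6674. These runs lie within the region known to form the triple helix, but not every base that pairs is marked. The 6 unmarked bases after the A run, with the end of that run, are the reverse complement of the later marked T-rich run. The tRNA-like small RNA follows those 6 bases and covers bases 6692 to 6749.
Malat1 before the cut: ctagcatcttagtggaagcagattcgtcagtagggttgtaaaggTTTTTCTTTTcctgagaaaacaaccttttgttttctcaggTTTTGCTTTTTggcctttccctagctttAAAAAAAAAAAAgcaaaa
Small RNA: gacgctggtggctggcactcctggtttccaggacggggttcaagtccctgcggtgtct

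The stretch before the cut holds 35.4% G and C and the small RNA 63.8%. The run of A is part of the genome and not an added tail, so methods that select poly(A) RNA can still catch Malat1. The labels do not say whether poly(A) RNA was selected for these libraries.

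The Neat1 values cover the sequence of the short isoform only. The tables name a single Neat1 transcript of 3177 bases, the RefSeq entry for the short form, whose GENCODE counterpart has 3004 bases against 20771 for the long isoform. Capitals in the last 60 bases of the short isoform mark AATAAA, the polyadenylation signal, which begins 20 bases before the end.
Neat1 short isoform end: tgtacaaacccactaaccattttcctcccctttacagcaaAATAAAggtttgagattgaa

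Reads from the rest of the long isoform had no entry in the tables. Reads within the counted part can come from either isoform, so the Neat1 values do not show how much of the paraspeckle-forming isoform was present.

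Malat1 was higher in both treated libraries. It had 3513.65 expected counts in IWR1, 4781 in Y27 and 1490.05 in NT. Expected counts are the authors' estimates of reads per gene, which can be fractional where a read matches more than 1 place. Scaled to library size (CPM), these were 628 CPM in IWR1 (95% counting interval 607 to 649), 857 CPM in Y27 (833 to 881) and 264 CPM in NT (250 to 277). The order was Y27 above IWR1 above NT, and the 3 intervals did not overlap. The intervals are exact Poisson ones and cover counting error only, not the spread between cultures. Nor do they cover how reads were assigned, and the Malat1 counts in IWR1 and NT were fractional. In bulk RNA, more cells with an RNA and more of it per cell cannot be told apart.

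Neat1 was much less abundant and was higher in both treated libraries too. Its whole counts were 264 in IWR1, 289 in Y27 and 124 in NT. On the CPM scale that was 47.2 in IWR1 (41.6 to 53.2), 51.8 in Y27 (46 to 58.1) and 21.9 in NT (18.2 to 26.2). The IWR1 and Y27 intervals overlapped, and both lay above the NT interval.

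**Figure D1:**
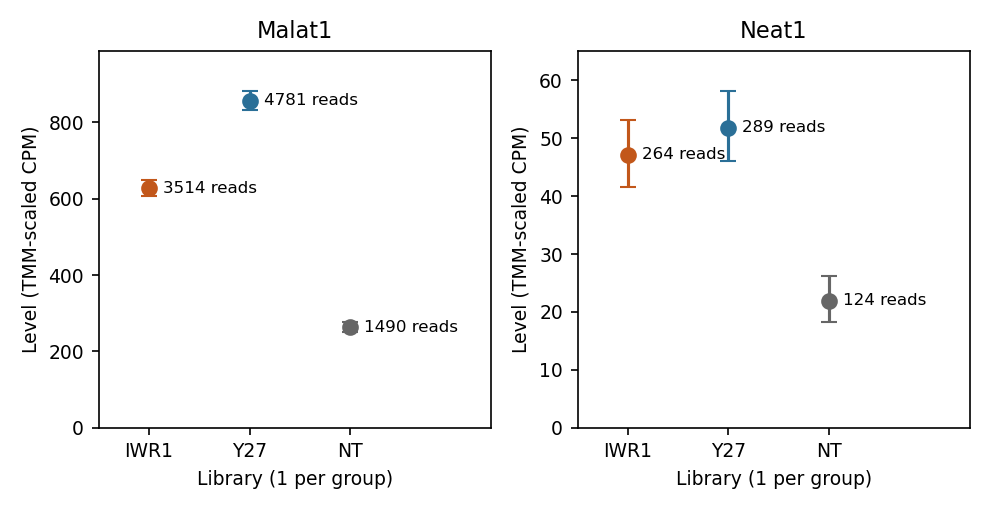
Levels of Malat1 (left) and Neat1 (right) in the IWR1, Y27 and NT libraries, as TMM-scaled CPM on axes that start at 0. Points are single libraries labelled with their rounded expected counts, and bars are exact 95% Poisson intervals. Malat1 stood at 628, 857 and 264 CPM and Neat1 at 47.2, 51.8 and 21.9 CPM, with NT lowest in both panels.

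Per length, Malat1 had a deposited FPKM of 88.7 in IWR1, 124 in Y27 and 36.5 in NT. It ranked 848 of 15720 listed genes in IWR1, 551 of 15867 in Y27 and 2335 of 15623 in NT. Neat1 had an FPKM of 14.7, 16.6 and 6.72 in the same order of libraries. In NT it lay near the middle of the listed genes, at rank 7533 and 1.09 times their median FPKM. In IWR1 and Y27 it was at 2.27 and 2.43 times the median. Malat1 made up 0.0627% of all counts in IWR1 (exact binomial 95% interval 0.0606% to 0.0648%), 0.0876% in Y27 (0.0851% to 0.0901%) and 0.0258% in NT (0.0245% to 0.0272%).

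IWR1 was set against NT to see which transcripts differ under tankyrase inhibition. Malat1 was 2.38-fold higher in IWR1 (exact conditional 95% interval of the fold 2.24 to 2.53), a log2 difference of 1.25. Log2 differences here were taken after adding 1 CPM to both levels, so those of weakly expressed genes come out too small. For Neat1 the fold was 2.15 (1.73 to 2.68) and the log2 difference 1.07. Among 12955 genes averaging 1 CPM or more over the libraries, 49.7% lay above 0, 2.28% were past 2-fold upward in IWR1 and 2.25% past 2-fold downward, and the median gene had a log2 difference of 0.00. Both members were among the 2.28%, at ranks 111 and 218 from the highest. This share only places them, since the same contrast served to choose them. Malat1 ended below 2-fold, at a log2 difference of 0.81, after correction for a trend over length and GC content of transcripts, and Neat1 did so at 0.95 with a pseudocount of 5 CPM.

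Y27 was set against NT to see which transcripts differ under the kinase inhibitor. Malat1 was 3.25-fold higher in Y27 (3.07 to 3.45), a log2 difference of 1.70. For Neat1 the fold was 2.36 (1.91 to 2.94) and the log2 difference 1.20. In this comparison 48.1% of genes lay above 0, and 5.58% of the genes were at least 2-fold higher and 1.34% at least 2-fold lower. Malat1 ranked 53 from the highest and Neat1 396, so more genes lay above Neat1 here than in the IWR1 comparison. Both comparisons use the same NT library, so they are not separate sightings of the difference.

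**Figure D2:**
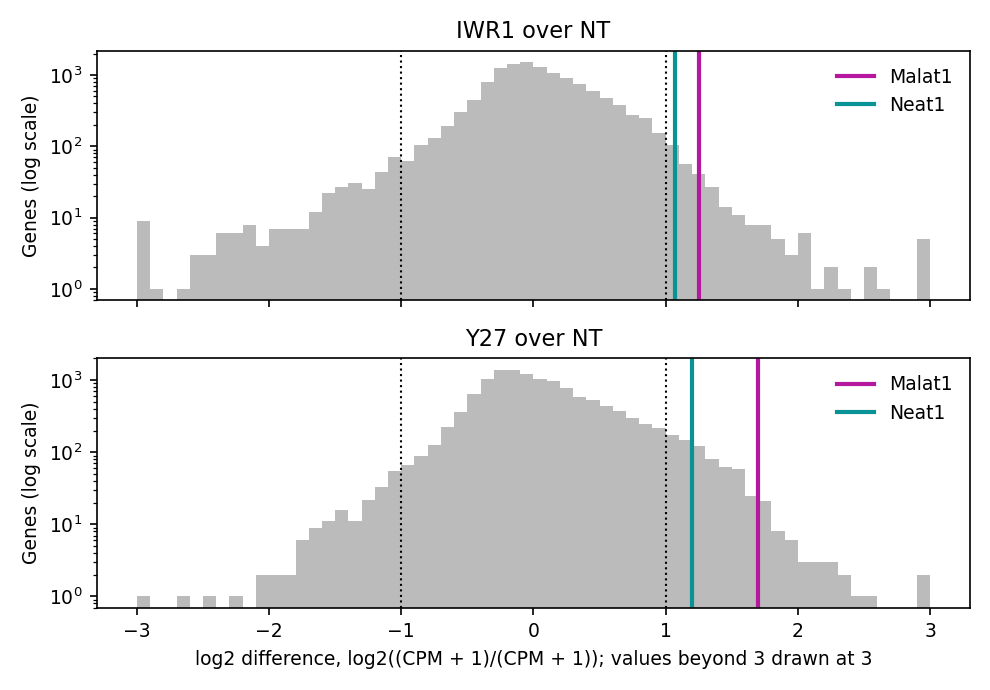
Distribution of log2 differences of the 12955 genes compared, IWR1 over NT (top) and Y27 over NT (bottom), with the number of genes on a log scale and dotted lines at 2-fold. Coloured lines mark Malat1, at 1.25 and 1.70, and Neat1, at 1.07 and 1.20, all in the right-hand tail, which is wider in the lower panel.

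Set against each other, the treated libraries held different levels of Malat1. It was lower in IWR1 than in Y27, at 628 against 857 CPM, a fold of 0.733 (0.701 to 0.765) and a log2 difference of -0.45. With the length and GC trend removed, that log2 difference was -0.23. Neat1 stood at 47.2 CPM in IWR1 and 51.8 CPM in Y27, a fold of 0.911 whose interval of 0.768 to 1.08 includes no difference. Of all genes compared, 50.1% lay above 0, 2.9% were at least 2-fold lower in IWR1 than in Y27 and 1.38% at least 2-fold higher, and neither member was among them. The agents were not given at matched doses.

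The balance of the pair within a library does not depend on how libraries are scaled. There were 13.3 Malat1 counts per Neat1 count in IWR1 (11.7 to 15.1), 16.5 in Y27 (14.7 to 18.7) and 12.0 in NT (9.999 to 14.6). Per length, from FPKM, Malat1 was 6.02, 7.48 and 5.44 times Neat1. The ratio of counts was 1.11-fold that of NT in IWR1, with an exact interval of 0.88 to 1.39, and 1.38-fold that of NT in Y27, with an interval of 1.10 to 1.72. In IWR1 relative to Y27 it was 0.805-fold (0.675 to 0.96). In Y27 the ratio differed from that of NT by more than counting error, whereas in IWR1 the interval included no difference from NT. The ratio still holds any trend over length and GC content, in which the transcripts of the pair differ. With that trend removed, Neat1 had the larger log2 differences from NT. They were 1.16 in IWR1 and 1.33 in Y27, against 0.81 and 1.05 for Malat1.

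The transcripts of the pair differ in length and base composition, and log2 differences over all genes moved with both properties. Malat1 is 6982 bases long with 42.5% GC, against medians of 2886 bases and 50.5% over the genes compared. Neat1, as counted, has 3177 bases and 51.1% GC, close to those medians. Among the 2724 genes with under 45% GC, the share past 2-fold upward was 6.02% in IWR1 over NT and 19.5% in Y27 over NT, against 0.943% and 0.678% of the 3394 genes with 55% GC or more. Median log2 differences in the low-GC class were 0.35 for IWR1 over NT and 0.50 for Y27 over NT. For transcripts of at least 5000 bases they were 0.18 and 0.26.

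**Figure D3:**
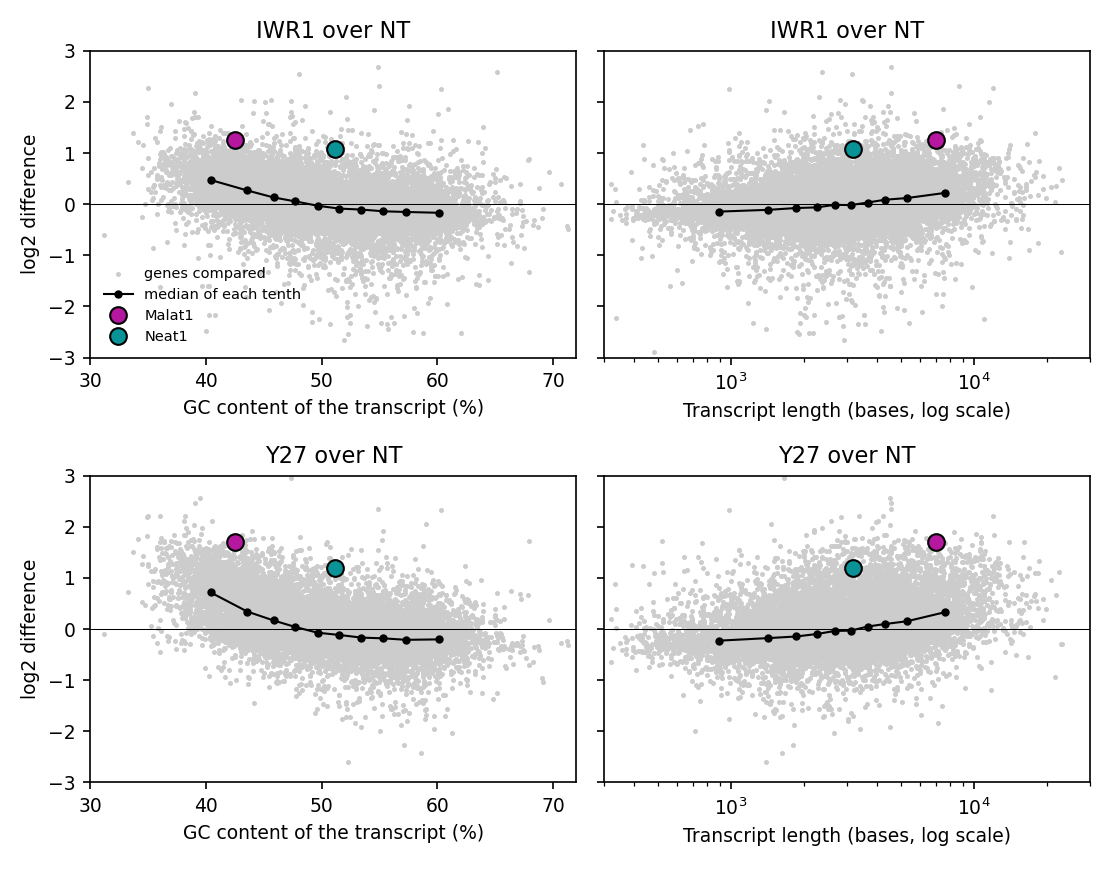
Log2 difference of every gene compared (grey) against transcript GC content (left) and length (right, log axis), for IWR1 over NT (top) and Y27 over NT (bottom). Points beyond the axes are not drawn, and black points join the medians of 10 equal groups of genes. Malat1 lies over the low-GC, long end, where medians are above 0, and Neat1 over the centre, where they are near 0.

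A surface fitted to length and GC content over all genes put a gene like Malat1 at 0.43 in IWR1 over NT and 0.65 in Y27 over NT. With that taken off, Malat1 stood at 0.81 and 1.05, the first under 2-fold and the second over it. For Neat1 the surface gave -0.09 and -0.12. With the trend removed, Neat1 stood at 1.16 and 1.33, above its values as counted. In IWR1 over Y27 the difference of Malat1 was then -0.23 and that of Neat1 -0.17. The part of RNA quality or library preparation in the trend was not tested.

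Genes near the pair that passed the level filter were within 2-fold of NT. From the 4 listed genes on each side, in the order of RefSeq on GRCm38.p6, 7 are reported. Frmd8, which encodes a cofactor of the iRhom proteins and lies next to Neat1, was at 161 CPM in IWR1, 129 in Y27 and 170 in NT. It was lower in Y27 than in NT, with a fold of 0.759 (0.689 to 0.837), while the interval in IWR1, 0.862 to 1.04, included no difference from NT. Dpf2, a chromatin remodeller subunit gene, was at 120, 123 and 137 CPM in IWR1, Y27 and NT.

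Of the 6 reported neighbours above the level filter, 0 were at least 2-fold apart in either treated library relative to NT. That count is near the shares of all genes, 2.28% higher and 2.25% lower in IWR1 over NT and 5.58% and 1.34% in Y27. Slc25a45, a mitochondrial carrier gene, was below that filter with 7 counts in IWR1, 2 in Y27 and 0 in NT. Ltbp3 and Tigd3 had few reads, 30 and 18.26 expected counts in IWR1, and wide intervals. Fam89b and Znrd2 were lower in Y27 than in NT, at 24.6 against 32.9 CPM and at 40.3 against 52.4 CPM.

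**Figure D4:**
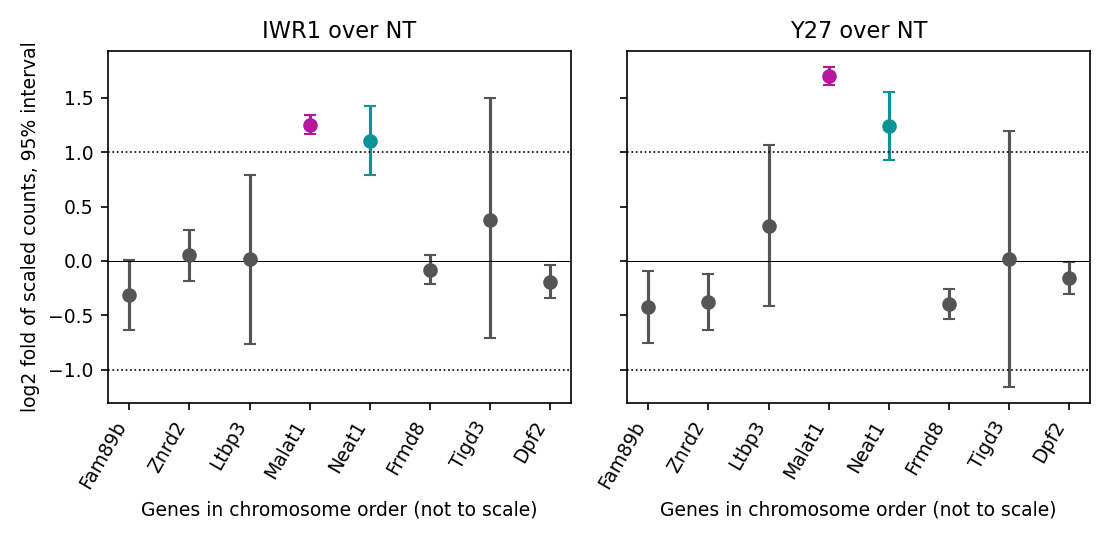
Log2 fold of scaled counts with exact 95% intervals for Malat1, Neat1 and the reported neighbours above the level filter, in chromosome order and not to scale, for IWR1 over NT (left) and Y27 over NT (right). Dotted lines mark 2-fold. Malat1 and Neat1 stand above 1 in both panels, and no neighbour's point reaches 1 in either direction, though the wide intervals of Tigd3 and Ltbp3 do.

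Paraspeckle proteins were next. The genes of 9 proteins counted as needed for paraspeckle assembly or stability were all measured. Of these, 0 of 9 were at least 2-fold apart in any comparison. That is near the shares of all genes, 2.28% higher and 2.25% lower in IWR1 over NT and 5.58% and 1.34% in Y27. In IWR1 over Y27 the shares were 1.38% higher and 2.9% lower. Nono, an RNA-binding protein that binds Neat1, was at 533 CPM in IWR1, 500 in Y27 and 570 in NT. Sfpq, its partner, was at 609, 670 and 585 CPM, and Pspc1, the third protein of that family, at 87.2, 109 and 81.2 CPM. Their log2 differences from NT ran from -0.19 for Nono in Y27 to 0.41 for Pspc1 in Y27. The summed level of the 9 genes was 3731 CPM in IWR1, 3750 in Y27 and 3706 in NT, a spread far smaller than that of Neat1. Their median log2 difference was 0.06 in both comparisons with NT, and in Y27 over NT it turned to 0.00 or slightly below with upper-quartile scaling.

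Of 17 other proteins found in paraspeckles, 0 were at least 2-fold apart in IWR1 over NT and 2 were higher in Y27 over NT, against 2.28% and 5.58% of all genes upward. Of the 17, 15 and 13 were above 0, against 49.7% and 48.1% of all genes. The medians were 0.37 and 0.39, against 0.00 and -0.02 over all genes, and 0.20 in both with the length and GC trend removed. Hnrnph1, a splicing regulator, was 2.19-fold higher in Y27 (2.07 to 2.32) and 1.67-fold higher in IWR1, on partly fractional counts. Matr3, a nuclear matrix protein gene, was 2.15-fold higher in Y27 (1.98 to 2.34). With the trend removed the Y27 log2 differences of Hnrnph1 and Matr3 were 0.94 and 0.21.

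Factors that set the 3′ end of Neat1 were within 2-fold of NT. Cpsf6 and Nudt21 encode subunits of the cleavage factor that favours the short isoform. Cpsf6 was at 221 CPM in IWR1 and 230 in Y27 against 150 in NT, 1.47-fold (1.35 to 1.61) and 1.53-fold (1.4 to 1.67) higher. Nudt21 was lower, at 127 and 117 CPM against 142 in NT. The Cpsf6 log2 differences of 0.55 and 0.61 turned to -0.15 and -0.46 with the trend removed, as its transcript is long and holds 38.5% GC. Of all 15 cleavage and polyadenylation genes, 0 were at least 2-fold apart, with medians of 0.02 and 0.04 that changed sign with upper-quartile scaling. The shares of all genes past 2-fold were 2.28% upward and 2.25% downward in IWR1 over NT, and 5.58% and 1.34% in Y27.

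For Malat1, the proteins of nuclear speckles came first. Of 25 genes, 1 was at least 2-fold higher in IWR1 over NT and 2 in Y27 over NT, and none was lower by as much. These shares stand beside 2.28% and 5.58% of all genes. The medians were 0.20 and 0.23. Clk1, a kinase that phosphorylates SR splicing factors and releases them from speckles, was at 61.3 CPM in IWR1, 78.5 in Y27 and 27.6 in NT, 2.22-fold (1.83 to 2.7) and 2.84-fold (2.36 to 3.44) higher. Pnn, which encodes the speckle protein pinin, was 1.81-fold (1.61 to 2.02) and 2.31-fold (2.08 to 2.58) higher. Srsf1, an SR protein that binds Malat1, was at 545 and 533 CPM against 420 in NT, and its log2 differences of 0.37 and 0.34 were -0.05 and -0.28 with the trend removed. Clk1 and Pnn then stood at 0.86 and 0.61 in IWR1, and at 1.11 and 0.88 in Y27.

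The enzymes that cut Malat1 were within 2-fold of NT. Elac2, the RNase Z that trims the tRNA-like small RNA, was at 92.7 CPM in IWR1, 81.5 in Y27 and 94.1 in NT. Of the 10 RNase P and RNase Z genes above the level filter, 0 were at least 2-fold apart. Their medians were -0.02 in IWR1 over NT, which changed sign under another scaling, and -0.17 in Y27 over NT. Few of all genes were past 2-fold too, 2.28% upward and 2.25% downward in IWR1 over NT, and 5.58% and 1.34% in Y27. RNase P's own RNA, Rpph1, had at most 1 count in any library, too few to compare. Whether these libraries capture that RNA was not tested, so its level in the cells is not known.

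Next were 9 genes of proteins that bind Malat1 or that place, read or remove N6-methyladenosine, a mark Malat1 carries. Of these, 0 of 9 were at least 2-fold apart from NT. Among all genes, 2.28% were higher and 2.25% lower by as much in IWR1 over NT, and 5.58% and 1.34% in Y27. Mettl16, which binds the Malat1 triple helix, was at 77.7 CPM in IWR1, 67.6 in Y27 and 71.8 in NT. Ythdc1, the nuclear reader of the mark, was 1.44-fold (1.26 to 1.65) and 1.8-fold (1.58 to 2.06) higher in IWR1 and Y27 than in NT. In the nuclear exosome, which degrades RNA in the nucleus, and its adaptors, 0 of 16 genes were at least 2-fold apart in IWR1 over NT and 1 in Y27 over NT, near the 5.58% of all genes that were higher there. That gene was Zfc3h1, which targets polyadenylated nuclear RNA to the exosome, 2.58-fold higher in Y27 (2.21 to 3.03) and 1.62-fold higher in IWR1 (1.37 to 1.92). With the trend removed its Y27 log2 difference was 0.98, just under 2-fold. Mtrex, the exosome's helicase, was at 123 CPM in IWR1, 145 in Y27 and 75.9 in NT.

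Transcription factors reported to act on Neat1 were within 2-fold of NT, 8 of 8. Most genes were, as 2.28% were past it upward and 2.25% downward in IWR1 over NT, and 5.58% and 1.34% in Y27. Trp53, which encodes p53, was at 615 CPM in IWR1, 524 in Y27 and 637 in NT. Epas1, which encodes the hypoxia factor HIF-2α, was low, at 2.5, 4.06 and 3.73 CPM. Hif1a was 1.39-fold (1.25 to 1.53) and 1.64-fold (1.49 to 1.81) higher in IWR1 and Y27, and stood at 0.05 and 0.09 on the log2 scale with the trend removed. Brca1 had the largest differences of the 8, 1.59-fold (1.40 to 1.80) and 1.68-fold (1.49 to 1.90) higher. With the trend removed it stood at 0.45 and 0.43. These are levels of RNA, and the activity of the proteins was not measured.

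Several other long non-coding RNAs were higher in the treated libraries. Of 14 nuclear or chromatin-bound ones above the level filter, 3 were at least 2-fold higher in IWR1 over NT and 7 in Y27 over NT, and 0 lower, against 2.28% and 5.58% of all genes upward. Their medians were 0.43 and 0.78, or 0.36 and 0.32 with the trend removed. Kcnq1ot1, the antisense RNA of an imprinted domain, was at 101 CPM in IWR1, 143 in Y27 and 53.4 in NT. Its log2 differences of 0.91 and 1.41 turned to -0.55 and -0.80 with the trend removed, at a listed length of 83437 bases that lies far out on the fitted surface. Meg3, the maternally expressed RNA of another imprinted domain, was at 103, 141 and 61.9 CPM, and stood at 0.88 and 1.38 with the trend removed, above its 0.73 and 1.18 as counted. Firre, an RNA of the X chromosome that stays in the nucleus, was at 134, 188 and 90.6 CPM. Tug1 was at 122, 157 and 77.5 CPM and stood at 0.06 and 0.11 with the trend removed.

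Ftx, a regulator of Xist, was 3.77-fold (1.97 to 7.86) and 4.81-fold (2.55 to 9.85) higher on 45.06, 57.23 and 12.06 expected counts in IWR1, Y27 and NT. The RNAs Miat and Xist, also past 2-fold in both comparisons, had at most 27 counts in any library and are not described further. Counts of Meg3, Kcnq1ot1 and Ftx were partly fractional and Kcnq1ot1 overlaps a gene on the other strand, so their values are uncertain.

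Host genes of small nucleolar RNAs, whose spliced RNAs are short-lived, had 1 of 19 members at least 2-fold higher in IWR1 over NT and 2 in Y27 over NT, against 2.28% and 5.58% of all genes. Of the 19, 15 were above 0 in each comparison, against 49.7% and 48.1% of all genes. The medians were 0.16 and 0.27, or 0.51 and 0.40 with the trend removed. Snhg14, from an imprinted domain, with 29.8% GC in the transcript counted, was 2.95-fold (2.33 to 3.78) and 4.01-fold (3.18 to 5.09) higher, and at 0.62 and 0.30 on the log2 scale with the trend removed. Snhg11, on partly fractional counts, was 1.91-fold (1.41 to 2.56) higher in IWR1 and 2.86-fold (2.16 to 3.77) higher in Y27, and at 0.63 and 1.07 with the trend removed. Gas5 was at 78.8 CPM in IWR1, 76.5 in Y27 and 39.8 in NT. Snhg3 was at 20.5 CPM in IWR1, 9.86 in Y27 and 10.6 in NT, high in IWR1 alone. Among 8 other long non-coding RNAs above the filter, 1 was at least 2-fold higher in IWR1 over NT and 2 in Y27 over NT, against the same shares of all genes. Mir17hg, host of a microRNA cluster, with partly fractional counts, was 2.33-fold (1.67 to 3.25) and 3.09-fold (2.26 to 4.29) higher. Crnde, the other one in Y27, rested on 13 counts in Y27 and 2 in NT.

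**Figure D5:**
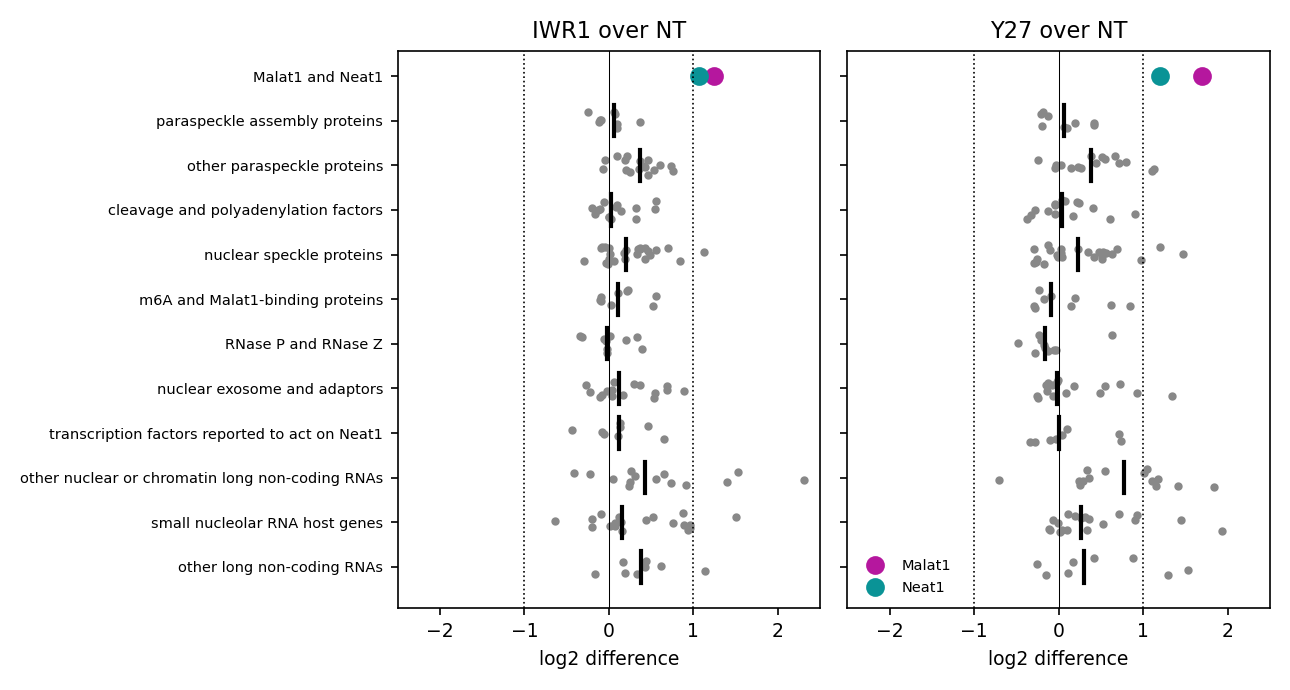
Log2 differences of Malat1 and Neat1 (top row) and of the genes of each group named at the left above the level filter (grey points), cell type markers not plotted, for IWR1 over NT (left) and Y27 over NT (right). Black bars are group medians and dotted lines mark 2-fold. Paraspeckle assembly proteins cluster near 0 with a median of 0.06 in both panels, and the nuclear long non-coding RNAs have the highest median of the groups plotted, 0.43 and 0.78. With the length and GC trend removed, not plotted, host genes of small nucleolar RNAs had higher medians, 0.51 and 0.40 against 0.36 and 0.32.

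Over the whole tables, 568 genes above the filter had only non-coding RefSeq accessions. Of these, 5.63% were at least 2-fold higher in IWR1 over NT and 13.0% in Y27 over NT, against 2.12% and 5.24% of the 12387 genes with coding accessions. Their median log2 differences were 0.14 and 0.21, or 0.15 and 0.27 with the trend removed. This class was drawn up after the values were seen.

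The genes with the most similar pattern were sought among 7452 with a symbol and at least 100 counts in every library. Likeness was the distance between pairs of log2 differences, IWR1 over NT and Y27 over NT, so it rests on 3 libraries. Nearest to Malat1 were Rev3l, the catalytic subunit of DNA polymerase zeta, Zfp638, Upf2, a factor of nonsense-mediated decay, Tasor2 and the unnamed model Gm5860, at distances of 0.02 to 0.18. The first 4 have transcripts of 5174 to 10666 bases with 40.7% to 43.5% GC, close to Malat1 in composition. Nearest to Neat1 were Aspm, a spindle pole gene, Zfp146, Ttk, a mitotic checkpoint kinase gene, Mga and Arhgap12, at 0.05 to 0.07. Their GC content ran from 42.0% to 48.8%, below the 51.1% of Neat1. Gm5860, Zfp146 and Mga had partly fractional counts and are uncertain. Neat1 lay 0.53 from Malat1. Neat1 was rank 72 by distance from Malat1, and Malat1 rank 322 by distance from Neat1.

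The 8 EpiSC markers were present in every library, with summed levels of 3397 CPM in IWR1, 2511 in Y27 and 2885 in NT. Their median log2 difference was 0.61 in IWR1 over NT and 0.13 in Y27 over NT, with 6 and 5 of 8 above 0. Fgf5, a growth factor gene of the epiblast chosen after its value was seen, was at 68.1 CPM in IWR1, 29.9 in Y27 and 20.7 in NT. It had the highest log2 difference of the 8 in both comparisons, 1.67 and 0.51. The lowest of the 8 were Nanog, at -0.39 in IWR1 over NT, and Cdh1, at -0.54 in Y27 over NT. Nanog was also below NT in Y27, at -0.23, and Pou5f1 was below NT in both, at -0.15 and -0.33. These genes, too, were named after their values were seen. Fibroblast markers, 9 of 10 listed, summed to 97.5, 86.0 and 142 CPM, with Postn at 0 in IWR1 and Dcn at 0 in Y27. Extraembryonic endoderm markers, 7 of 10 listed, summed to 291, 556 and 479 CPM, with Gata4 at 0 in IWR1. Trophoblast markers, 7 of 8 listed, summed to 122, 299 and 246 CPM, and all 6 neural markers to 69.2, 51.5 and 59.2 CPM, with Pax6 at 0 in IWR1 and NT and Neurod1 at 0 in Y27. Of these sets of other cell types, only the fibroblast set had a summed level below NT in both treated libraries. The extraembryonic endoderm and trophoblast sums were above NT in Y27, and the neural sum was above NT in IWR1. In Y27, 1 gene held 510 of the 556 CPM of the extraembryonic endoderm set. Of the 299 CPM of the trophoblast set in Y27, 1 gene held 204 and another 68.8. The 6 trophoblast markers above the level filter had a median of -0.32 in Y27 over NT, with 2 above 0. In IWR1 over NT their median was -0.74 and their lowest value -3.82. The 3 neural markers above the level filter had medians of 0.15 in IWR1 over NT and 0.11 in Y27 over NT. With the trend removed these were -0.06 and -0.56. The part of these markers in the Malat1 and Neat1 differences was not tested. The mitochondrially encoded genes listed as a sign of RNA quality were not analysed here. Expected counts summed to 5607725 in IWR1, 5459332 in Y27 and 5767550 in NT.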

How the data were processed

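The deposited tables of 3 libraries, 1 per group, were used. Per the file headers, every gene has an Entrez identifier, a length, an expected count and an FPKM. Expected counts, which the authors deposited without normalization, estimate the reads of a gene. FPKM, also deposited by the authors, divides these by length and library size. The submitters' processing notes name Bowtie 0.12.2 and mm8. The sources used here name no counting tool, and do not state whether separate cultures were used.

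A gene missing from a table was taken as 0. Counts were scaled with TMM factors (edgeR 4.0.16, R 4.3.3) of 0.998 for IWR1, 1.02 for Y27 and 0.980 for NT. Genes averaging 1 CPM or more were compared after adding 1 CPM. No count model was run, as there were no replicates. Fold intervals used rounded counts and are exact conditional binomial, those of ratios exact conditional odds ratios. Symbols matched 99.7% of identifiers. GC content, from GENCODE M21 transcripts, was had for 99.0% of the genes compared. The trend was a third-order polynomial of log2 length and GC content. Of the neighbours, 1 gene is not reported here. Steps were tested on simulated data. Genes could be named where they were members of a plotted list and past 2-fold with 30 or more reads or among the 3 members furthest apart in a comparison, where they were neighbours or one of the 5 nearest patterns, and for 8 chosen genes. Genes, lists and settings were chosen with earlier results of these data known. DESeq2 1.42.0 gave alternative size factors. Other work used Python 3.11.15 (numpy 2.4.6; pandas 2.3.3), scipy 1.17.1 for intervals and matplotlib 3.10.9 for figures.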

Additional observations from a re-analysis of the deposited data

How the results depend on the processing

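No paired analysis was possible because each group had 1 library, and for the same reason none could be left out. The settings tried for each member and comparison were 2 other pseudocounts, 3 other scalings, removal of the length and GC trend and the deposited FPKM. Over these, 41 of 44 values moved by less than counting error and none changed sign. The other 3 were Malat1 with the trend removed, at 0.81 in IWR1 over NT, 1.05 in Y27 over NT and -0.23 in IWR1 over Y27. The 44 include the Malat1 to Neat1 ratio, which was retried only from FPKM and not with the trend removed. With the trend removed, Malat1 stood below Neat1 in both comparisons with NT, though above it as counted.

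Counts of genes past the threshold moved more, given as higher and lower. In IWR1 over NT (295 and 292) they were 543 and 463 with a pseudocount of 0.1 CPM, 80 and 98 with 5 CPM, 152 and 164 from FPKM, 185 and 183 with a mean of at least 5 CPM, 1404 and 825 at 1.5-fold and 43 and 79 at 3-fold. With the trend removed 186 were higher, and 179 among genes with whole counts. In Y27 over NT (723 and 173), 320 were lower with a pseudocount of 0.1 CPM, 93 from FPKM and 96 with a mean of at least 5 CPM. The counts were 340 and 42 with 5 CPM, 1928 and 717 at 1.5-fold and 80 and 27 at 3-fold. With the trend removed they were 251 and 125, and 428 genes with whole counts were higher. In IWR1 over Y27 (179 and 376) they were 311 and 595 with a pseudocount of 0.1 CPM, 53 and 146 with 5 CPM, 99 and 231 from FPKM, 91 and 224 with a mean of at least 5 CPM, 656 and 1062 at 1.5-fold and 35 and 107 at 3-fold, and 245 genes with whole counts were lower. Pseudocounts, filters and thresholds act by construction, and the cause of the other shifts was not tested. A count of 0 allows up to 3 counts, which is 0.536, 0.538 and 0.531 CPM in IWR1, Y27 and NT.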
